A study of Mus musculus with 10 samples.

Results

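The Wnt signalling genes of the mouse spinal cord were followed here as 54 genes among the 25232 of the deposited table. They were chosen by symbol as the Wnt ligands, the R-spondins, the Frizzled receptors, the co-receptors *Lrp5* and *Lrp6*, the R-spondin receptors *Lgr4*, *Lgr5* and *Lgr6*, the secreted antagonists, and *Axin1*, *Axin2*, *Ctnnb1*, *Lef1* and the *Tcf7* genes, with a base mean above 0. Of the 56 genes with such a symbol, *Wnt3a* and *Dkk4* were listed at 0 and were left out, and the lowest value kept was 0.724, for *Wnt8a*. One of the 54, *Fzd10os*, is a long noncoding RNA next to *Fzd10* and not a receptor gene. The libraries were 10 bulk RNA-seq libraries of spinal cord, 5 from WT females and 5 from SOD1 G93A females, all 90 days old of the C57BL/6 strain in the labels (C57BL/6J background in the methods), with no treatment named. SOD1 G93A mice carry many copies of a human *SOD1* transgene with a mutation of familial amyotrophic lateral sclerosis (ALS), and the WT mice were littermates without it. The methods give the lumbar region, where the labels give no region.

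The study compared the genotypes, and the table gives that comparison as fold changes and p-values made by its authors, which were not used here. Its other measurement is the base mean, the average over all 10 libraries of a gene's count divided by the library's size factor (a scaling for depth). A base mean pools both genotypes. The values below are therefore levels in the pooled mice, with no level per genotype, no spread between mice and no test. In bulk tissue, fewer cells of a type and less RNA per cell cannot be told apart.

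Wnt proteins are secreted ligands with a lipid attached, which bind a Frizzled receptor together with *Lrp5* or *Lrp6* on the receiving cell. Binding halts the complex of Axin, APC and GSK3 that marks beta-catenin for destruction, and beta-catenin then enters the nucleus and activates genes with TCF/LEF factors. Other Wnt signals pass through Frizzled receptors without beta-catenin and guide cell polarity and growing axons. R-spondins raise the amount of receptor at the cell surface, and secreted antagonists bind either the ligand or the co-receptor. In the spinal cord, the pathway is known for dorsal patterning, for guiding axons along the cord and for the growth and barrier of its vessels.

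The promoter windows of the members were mostly rich in CpG dinucleotides, a feature that the choice of genes did not use. A window held 250 bases before and 50 after a start site annotated in RefSeq on GRCm38.p6, and 36 of the 54 genes had at least 1. The windows of *Ctnnb1* (chr9:120933150-120933449, plus strand), *Wnt1* (chr15:98789607-98789906, plus strand) and *Fzd10* (chr5:128600856-128601155, plus strand) are shown because they belong to the member with the highest level, to the lowest of those with a window, and to the receptor gene that faces *Fzd10os*. They were picked after their values were seen. For *Ctnnb1* and *Fzd10*, the RefSeq start lies inside the gene as GENCODE annotates it. CpG dinucleotides are in capitals.
Ctnnb1: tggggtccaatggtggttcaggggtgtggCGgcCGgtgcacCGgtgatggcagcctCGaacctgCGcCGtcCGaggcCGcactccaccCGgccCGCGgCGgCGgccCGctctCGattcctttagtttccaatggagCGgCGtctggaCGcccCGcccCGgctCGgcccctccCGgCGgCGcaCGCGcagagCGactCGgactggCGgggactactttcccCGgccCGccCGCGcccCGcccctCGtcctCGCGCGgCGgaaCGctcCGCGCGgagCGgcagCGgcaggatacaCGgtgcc
Wnt1: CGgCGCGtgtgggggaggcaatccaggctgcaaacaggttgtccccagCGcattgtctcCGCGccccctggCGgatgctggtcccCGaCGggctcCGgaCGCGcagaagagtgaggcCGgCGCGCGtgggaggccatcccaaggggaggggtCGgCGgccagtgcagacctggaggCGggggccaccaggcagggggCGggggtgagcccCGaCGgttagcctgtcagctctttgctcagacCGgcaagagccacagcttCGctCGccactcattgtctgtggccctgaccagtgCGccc
Fzd10: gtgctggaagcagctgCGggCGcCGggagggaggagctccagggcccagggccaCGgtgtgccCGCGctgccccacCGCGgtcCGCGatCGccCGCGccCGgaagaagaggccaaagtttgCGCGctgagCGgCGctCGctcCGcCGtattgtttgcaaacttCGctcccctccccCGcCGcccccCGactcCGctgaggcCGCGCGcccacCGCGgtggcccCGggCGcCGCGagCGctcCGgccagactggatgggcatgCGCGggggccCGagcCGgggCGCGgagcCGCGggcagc
They held 46, 26 and 45 CpG dinucleotides, at a GC content of 75.3%, 70.7% and 77.7%.

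The window with the most CpG dinucleotides was taken for each gene. The median was 29 over the 36 members and 18 over the 14255 protein-coding genes of the table that had a window and a base mean above 0. The count was above 18 in 28 of the 36. *Ctnnb1* (51, in a window other than the one printed) and *Wnt1* both lay above 18, and their levels were near opposite ends of the list. A relation of CpG count to level over the members was not tested. The TCF/LEF motif was searched as CTTTGAT or CTTTGAA on both strands. It was present in 3 of the 45 windows of members (6.67%), in 6.67% of the windows of protein-coding genes and in 8.65% of all 32851 windows. These 3 windows belonged to *Wnt5b*, *Wnt11* and *Dkk1*, and that of *Dkk1* (chr19:30549447-30549746, minus strand) is shown with the match in capitals, since Dkk1 is known as an inhibitor that the pathway itself induces. The window of *Axin2*, which the pathway induces too, held no match. A match is a description of letters and not a bound site.
Dkk1: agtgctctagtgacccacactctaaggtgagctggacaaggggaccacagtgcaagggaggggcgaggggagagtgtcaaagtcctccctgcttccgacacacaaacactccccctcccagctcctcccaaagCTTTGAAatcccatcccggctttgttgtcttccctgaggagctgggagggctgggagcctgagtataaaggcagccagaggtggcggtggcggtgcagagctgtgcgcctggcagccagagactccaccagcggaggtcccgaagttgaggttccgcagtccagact

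**Figure D1:**
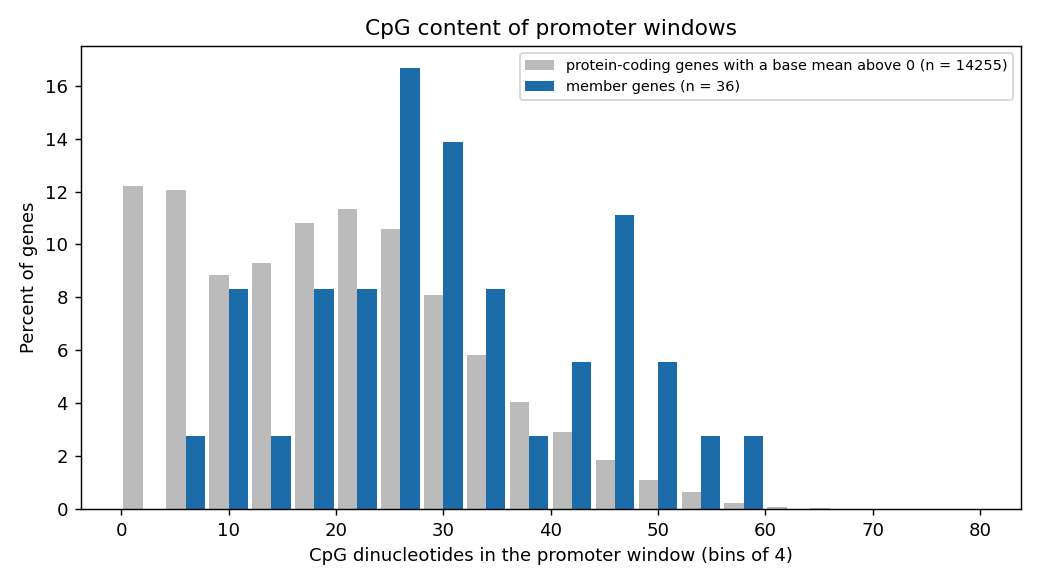
Percent of genes (vertical axis) by the number of CpG dinucleotides in the 300-base promoter window (horizontal axis, bins of 4), for 14255 protein-coding genes (grey) and 36 members (blue). The members lie further to the right, with a median of 29 against 18.

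Levels were compared between genes as the base mean per kb of exon, because longer transcripts collect more reads. The number of exonic bases came from GENCODE M21 (GRCm38) and was found for 53 members, all but *Fzd10os*. Orders and ratios hold for this length, and some turned with the longest transcript or coding sequence, as given below for the main ones. As a reference, 20358 genes with a base mean above 0 had such a level, with a median of 63.5 per kb and an upper quartile of 216 per kb. The lowest base means in the table were 10 repeated values from 0.0868 to 0.119, which is what 1 counted read (or read pair) in each of the 10 libraries is worth. They correspond to size factors from 0.840 to 1.15, so that a base mean of 10 stands for 85 to 115 reads in all. Intervals given below cover counting error only, at 95%, and the spread between mice is not known.

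The median level of the members was 32.3 per kb, at percentile 40.0 of all genes. Of the 53, 15 were above the median of all genes, and 2 of these, *Ctnnb1* and *Dkk3*, were above the upper quartile. These 2 genes held 52.9% of the summed level of the 53. A base mean of at least 10 was reached by 46 of the 54 members (85.2%), against 75.9% of all genes above 0. The other 8 were 5 ligands, 1 R-spondin and 2 antagonists. All genes above 0 include noncoding ones (17700 of the 20358 with a level were protein-coding). The members are coding genes but for *Fzd10os*, and no such share was taken over coding genes alone.

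**Figure D2:**
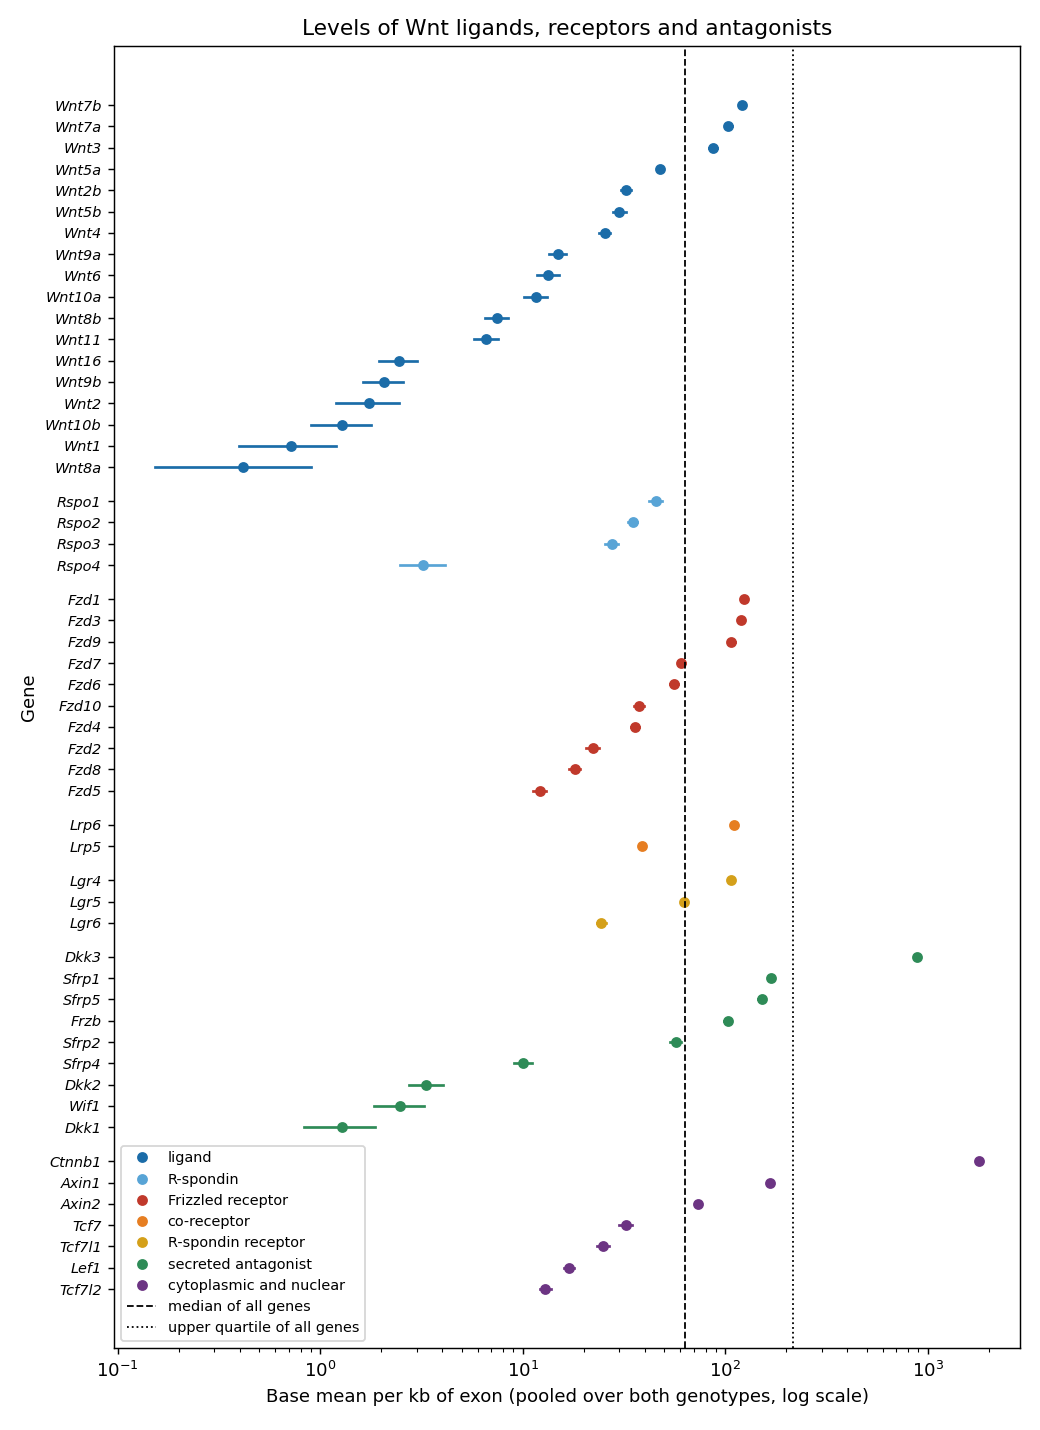
Base mean per kb of exon, pooled over both genotypes (log axis), of the 53 members with an exon length, by role. Points are the levels and bars the 95% counting intervals, and the dashed and dotted lines mark the median (63.5) and upper quartile (216) of all genes. *Ctnnb1* and *Dkk3* alone lie right of the dotted line.

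**Figure D3:**
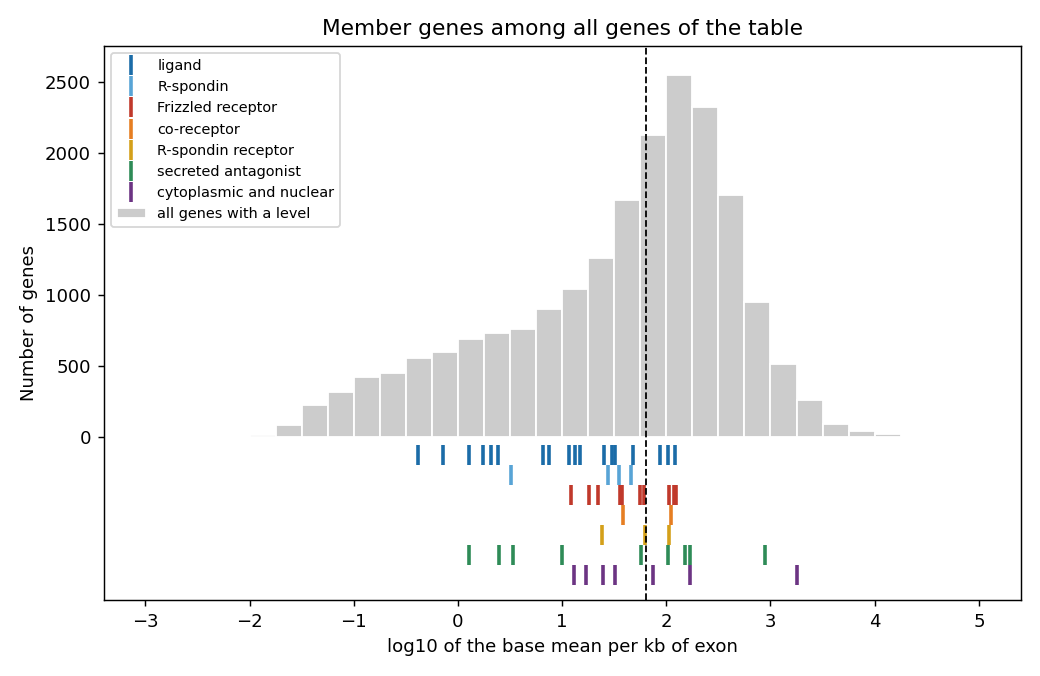
Number of genes (vertical axis) by log10 of the base mean per kb of exon, for 20358 genes (grey bars), with each member as a tick below, one row per role. The dashed line is the median of all genes, and 38 of the 53 ticks lie at or left of it.

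Among the ligands, *Wnt7b*, *Wnt7a* and *Wnt3* stood highest and made up 61.2% of the summed level of the 18 ligands above 0. Wnt7a and Wnt7b are known for driving the growth of vessels into the neural tube and for the barrier of these vessels. *Wnt7b*, on chromosome 15 from 85535437 to 85582473, had a base mean of 595 and a level of 121 per kb (118 to 125). *Wnt7a*, on chromosome 6 from 91363981 to 91411363, had a base mean of 329 and a level of 104 per kb (100.01 to 108). Together they held 44.1% of the ligand sum, and their counting intervals did not overlap. The level of *Wnt3* was 87.1 per kb (83.6 to 90.8) at a base mean of 268. The other 15 ligands were all below the median of all genes. Per kb of coding sequence *Wnt5a* (326) was second, above *Wnt7a* (315) and *Wnt3* (252).

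*Wnt5a*, the best known ligand of the branch without beta-catenin, was the fourth at 47.6 per kb (base mean 372). *Wnt5b*, its closest relative, had a level of 30.0 per kb at a base mean of 79.7. With *Wnt4* (25.4 per kb, base mean 106) and *Wnt11* (6.60 per kb, base mean 27.3), which also act without beta-catenin in several tissues, the 4 genes held 21.5% of the ligand sum. *Wnt2b* reached 32.4 per kb (base mean 136), and its counting interval overlapped that of *Wnt5b*. Lower still were *Wnt9a* with 14.9 per kb, *Wnt6* with 13.3 and *Wnt10a* with 11.6, at base means of 49.6, 29.2 and 28.6. *Wnt8b* had 7.44 per kb at a base mean of 25.9, and *Wnt16* 2.44 per kb at 10.6.

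The ligands under a base mean of 10 were *Wnt9b* (9.33), *Wnt10b* (4.37), *Wnt2* (3.93), *Wnt1* (1.71) and *Wnt8a* (0.724). Wnt1 and Wnt3a are the ligands of the roof plate, the dorsal signalling centre of the embryonic cord. The base mean of *Wnt1* stood for 15 to 19 reads over all 10 libraries. *Wnt3a* was listed at 0, and a count of 0 over the libraries allows a base mean of up to 0.357, the worth of 3 reads. For *Wnt8a*, a single combination of reads gave the base mean, 8 reads from 4 libraries (counting interval 3.45 to 15.8), of which 5 came from the same library, with no read in the other 6 libraries. Which mice these libraries came from is not known. The highest ligand level was 293 times that of *Wnt8a*, and 816 times per kb of coding sequence.

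Several ligand genes lie side by side, and some of these neighbours differed widely in level. Within 60 kb of each other were 4 pairs of ligand genes, and *Fzd10* with *Fzd10os* was the fifth pair of members. *Wnt9b* and *Wnt3* start back to back on chromosome 11, with 24328 bases between 103749821 and 103774150, and the level of *Wnt3* was 42.2 times that of *Wnt9b* (2.06 per kb). *Wnt3a*, listed at 0, is 16175 bases from *Wnt9a* on the same chromosome. *Wnt10b* and *Wnt1* are 11706 bases apart on chromosome 15 and were both low, at 1.28 and 0.721 per kb with overlapping counting intervals. *Wnt6* and *Wnt10a*, on the same strand of chromosome 1 with 6193 bases between them, had overlapping counting intervals too.

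The R-spondins all lay below the median of all genes. *Rspo1* had a level of 45.5 per kb at a base mean of 88.1. For *Rspo2*, the values were 35.04 per kb and 179. *Rspo3* followed at 27.6 per kb (base mean 85.3) and *Rspo4* at 3.23 per kb (base mean 7.65). The order of the first pair depended on the length used, since *Rspo2* was the highest per kb of its longest transcript or coding sequence. Of their receptors, *Lgr4* reached 107 per kb (base mean 630) and *Lgr5*, known as a stem cell marker in the gut, 62.8 per kb (base mean 645), while *Lgr6* had 24.4 per kb (base mean 167). *Lgr5* was above *Lgr4* with the other lengths, and has 10264 annotated exonic bases in all against 4793 in its longest transcript.

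All 10 Frizzled genes had a base mean of at least 81.3. Their levels ranged from 12.2 to 124 per kb, a 10.2-fold range (16.1-fold per kb of coding sequence). *Fzd1* had 124 per kb (120.1 to 127) at a base mean of 519, and *Fzd3*, which is needed for the growth of long axon tracts, had 119 per kb (117 to 121) at a base mean of 1525. Their counting intervals overlapped, and *Fzd3* was the higher per base of coding sequence. *Fzd9* followed at 107 per kb (base mean 246). *Fzd1*, *Fzd3* and *Fzd9* were the Frizzled genes above the median of all genes, and held 59.1% of the Frizzled sum.

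The next Frizzled genes were *Fzd7* with 60.8 per kb (base mean 275) and *Fzd6* with 55.9 (base mean 269). *Fzd10* had 37.6 per kb and *Fzd4*, the receptor of Norrin, 35.8 per kb at a base mean of 240, with overlapping counting intervals. *Fzd2* had 22.2 per kb, *Fzd8* 18.0 and *Fzd5* 12.2, at base means of 81.3, 108 and 84.1. The receptors fall into groups by relatedness. *Fzd1*, *Fzd2* and *Fzd7* held 34.9% of the Frizzled sum, *Fzd4*, *Fzd9* and *Fzd10* held 30.5%, *Fzd3* and *Fzd6* held 29.5%, and the close pair *Fzd5* and *Fzd8* held 5.10%. Per kb of coding sequence *Fzd3* and *Fzd6* were the leading group with 48.8%, and *Fzd4*, *Fzd9* and *Fzd10* held 19.6%. In the annotation 6 of the 53 genes had a single exon, and all 6 were Frizzled genes (*Fzd1*, *Fzd2*, *Fzd7*, *Fzd8*, *Fzd9* and *Fzd10*). The 6 included members from 18.0 to 124 per kb, so that the genes with a single exon spread over most of the range.

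*Fzd10os* starts next to *Fzd10* and runs the other way. RefSeq places it on chromosome 5 from 128579130 to 128600687, and GENCODE lists the same gene as *5930412G12Rik* on the minus strand, 150 bases from the start of *Fzd10*. The base mean of *Fzd10os* was 129 and that of *Fzd10* 122. Over the 3394 exonic bases of *5930412G12Rik*, *Fzd10os* had 38.0 per kb, and its distance from the 37.6 per kb of *Fzd10* was less than the counting error of either (3.04% and 3.12%). The genes of this pair share no exonic bases in the annotation. The CpG-rich window printed above for *Fzd10* begins just inside *Fzd10* as annotated by GENCODE.

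Of the co-receptors, *Lrp6* stood above *Lrp5*. *Lrp6*, on chromosome 6 from 134446476 to 134566965, had a base mean of 1520 and a level of 111 per kb (109 to 113). *Lrp5* had a base mean of 378 and a level of 38.8 per kb (37.5 to 40.2), so that *Lrp6* was 2.86 times as high. This ratio was 3.82 with the longest transcript and 4.02 per kb of coding sequence. The Frizzled genes summed to 3.95 times the level of both co-receptors, 2.93 times with the longest transcript and 4.65 times per kb of coding sequence. Against the ligands, their sum was 1.16 times as high per kb of exon and 0.956 times per kb of coding sequence, so that no order of these sums is read.

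The secreted antagonists spanned a 694-fold range of levels, from *Dkk1*, with 26 to 35 reads over all libraries, to *Dkk3*. *Dkk3* had a base mean of 2973 and a level of 885 per kb (874 to 896), at percentile 94.6 of all genes. Its gene lies on chromosome 7 from 112116017 to 112159057. Dkk3 is the divergent member of its family, for which binding to Lrp5 and Lrp6 is not established. The Dickkopf genes that do encode inhibitors or modulators of these co-receptors were far lower. *Dkk2* had 3.35 per kb at a base mean of 12.4, *Dkk1* had 1.28 per kb at a base mean of 3.09, and *Dkk4* was listed at 0.

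Secreted Frizzled-related proteins carry a Frizzled-like domain that holds the ligand. *Sfrp1* was the highest of them at 168 per kb (164 to 172) and a base mean of 735. *Sfrp5* reached 151 per kb (base mean 287) and *Frzb*, another name for Sfrp3, 103 per kb (base mean 333). *Sfrp2* had 56.9 per kb (base mean 123), *Sfrp4* 10.1 per kb (base mean 42.1), and *Wif1*, another protein that binds the ligand, 2.48 per kb (base mean 6.02). *Sfrp1*, *Sfrp5*, *Frzb* and *Dkk3* were the antagonists above the median of all genes. Without *Dkk3*, the antagonists summed to 496 per kb, and the Sfrp genes with *Frzb* made up 98.6% of that sum. The ligands summed to 510.3 per kb. The antagonist sum without *Dkk3* was 0.972 times the ligand sum, 0.861 times with the longest transcript and 0.853 times per kb of coding sequence.

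Inside the cell, *Ctnnb1*, the gene of beta-catenin, had the highest level of all members. Its base mean was 9275 and its level 1786 per kb (1774 to 1799), at percentile 97.9 of all genes. It lies on chromosome 9 from 120929216 to 120960507. Beta-catenin also serves in the junctions between cells, and bulk RNA does not separate these roles. In the annotation, 14.6% of the exonic bases of *Ctnnb1* are shared with *Ulk4* on the other strand, which had a base mean of 96.3. *Axin1*, a scaffold of the destruction complex, had 167 per kb (base mean 640). *Axin2*, which the pathway induces as its own brake, had 73.8 per kb (base mean 406), and *Axin1* was 2.26 times as high.

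The TCF/LEF factors were all low. *Tcf7* had 32.3 per kb (base mean 84.8), *Tcf7l1* 24.9 (base mean 97.5), *Lef1* 17.0 (base mean 149) and *Tcf7l2* 12.9 (base mean 113). Summed, they came to 87.1 per kb, and the level of *Ctnnb1* was 20.5 times that sum, or 11.8 times per kb of coding sequence. *Lef1* was the highest of the 4 with the other lengths, at 40.9 per kb of its longest transcript and 125 per kb of coding sequence. *Lef1* has many annotated transcripts, and 13.7% of its exonic bases are shared with a gene on the other strand. In all, 11 members share exonic bases with another annotated gene, 5 of them at least 10% of their own. The kit keeps the strand, but the setting used in counting is not given in the sources used here.

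Within a role, 46 pairs of genes were neighbours in the order of levels. The counting intervals overlapped in 13 of these pairs and not in the other 33. Of the 13, 9 were pairs of ligands, such as *Wnt16* and *Wnt9b*. Whether neighbours would keep their order from mouse to mouse cannot be seen in a pooled value.

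The rest of the pathway, a list of 48 genes, was measured on the same scale. Of these, 35 (72.9%) were above the median of all genes, against 28.3% of the members, and 19 were above the upper quartile of all genes. Their median was 154 per kb, at percentile 67.6. In the cytoplasm 13 of 14 genes were above the median of all genes, led by the kinase genes *Gsk3a* (1376 per kb) and *Csnk1d* (684 per kb) and by *Apc2* (556 per kb). All 9 nuclear partners were above it too, from *Tle1* (86.0 per kb) to *Ctnnbip1* (410 per kb), whose product keeps beta-catenin from TCF factors.

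Of the 9 genes listed under planar cell polarity, 7 were above the median of all genes. *Daam2* (623 per kb), *Celsr2* (522) and *Daam1* (307) were the highest and *Celsr1* (7.06) the lowest. Ligand secretion was read in *Porcn*, which attaches the lipid (316 per kb), and *Wls*, which carries the ligand to the surface (153 per kb), and both were higher than any single ligand. *Notum*, which removes the lipid, had 30.3 per kb.

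The other receptors were nearer to the Frizzled genes, with 2 of 6 above the median. *Ryk* reached 162 per kb, *Kremen1*, a partner of Dkk1, 69.4, and *Ror1* 5.93. The ubiquitin ligases that R-spondins hold back, *Znrf3* and *Rnf43*, had 39.0 and 25.8 per kb. Norrin, the ligand of Fzd4 that is not a Wnt, is encoded by *Ndp* (89.0 per kb), and the helper of this receptor by *Tspan12* (258 per kb), both above *Fzd4* itself. *Sost*, an antagonist of bone, had 2.80 per kb and *Dkkl1* 2.39.

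**Figure D4:**
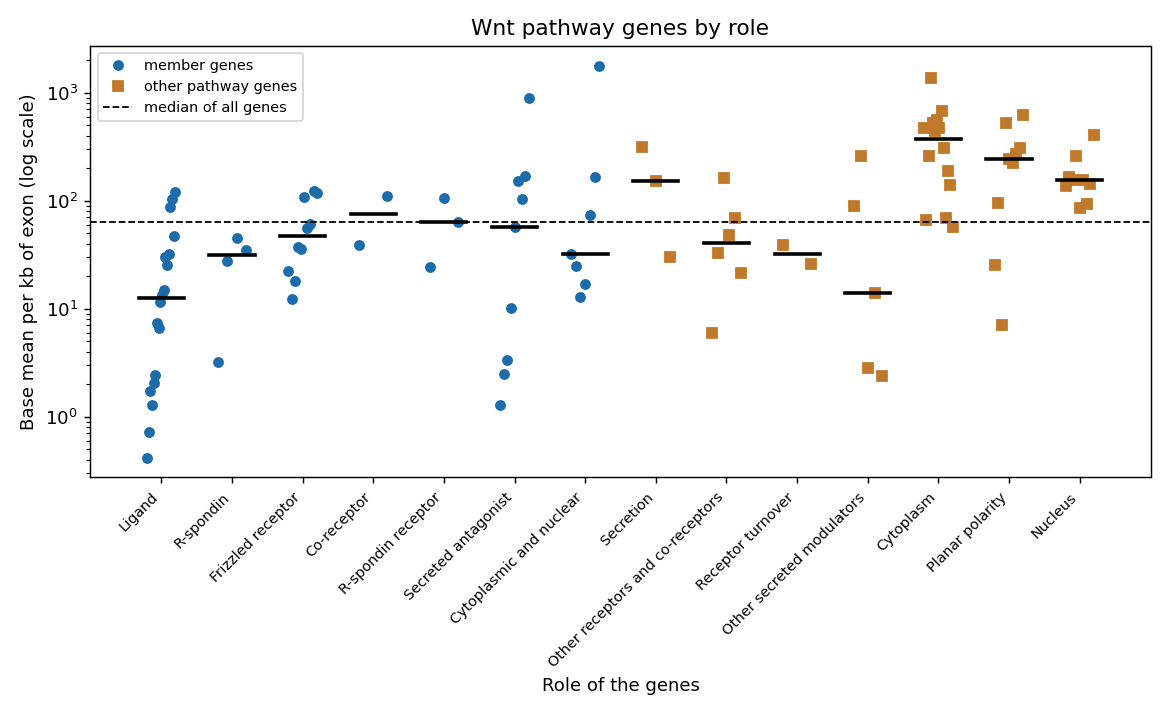
Base mean per kb of exon (log axis) of each gene by role, for 53 members (blue circles) and 48 other pathway genes (orange squares). Black bars are medians and the dashed line is the median of all genes (63.5). The ligands have the lowest median of any role (12.5) and the cytoplasmic genes of the other list the highest (373).

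The tissue was checked by markers on the same scale. Neuronal, oligodendrocyte and astrocyte genes were all above the upper quartile, with *Mbp* at 37740 per kb and *Gfap* at 13345 per kb, and the motor neuron genes *Chat* and *Slc5a7* had 156 and 410 per kb. The motor neuron factors *Isl1* and *Mnx1* were below the median of all genes, at 11.5 and 16.6 per kb. All 4 microglial and all 3 endothelial genes were above it, such as *Csf1r* (527 per kb) and *Cldn5* (501 per kb). Of 3 ependymal genes, *Foxj1* (319 per kb) was above it, and *Ccdc153* and *Tmem212* were not (36.8 and 36.7 per kb). *Prx* and *Pmp2*, of the Schwann cells around nerve roots, had 86.8 and 15.3 per kb. The forebrain gene *Neurod6* had a base mean of 78.9. The 3 genes of sensory ganglion neurons had at most 14.4 per kb. Which of these cells the Wnt genes were read from was not tested.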

How the data were processed

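RNA of the spinal cord of 5 WT and 5 SOD1 G93A female mice of 90 days was sequenced, and groups were taken from the sample labels. The authors filtered the reads with Fastp and aligned them to mm10 with HISAT2 (2.1.0 in the submitters' processing notes). Uniquely mapped reads were counted on genes by the authors with featureCounts (2.0.2 in the same notes), and their annotation is not given in the sources used here. The signal in the deposited table is the base mean, for which the authors divided the counts by the size factors of DESeq2 and averaged them over all 10 libraries. The 5 columns of the authors' comparison (log2 fold change, standard error, Wald statistic, p-value and adjusted p-value) were not used, and no columns of single libraries were analysed here. The members and gene lists were chosen with earlier results of these data known.

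The base mean was divided by the merged exonic bases of GENCODE M21 (GRCm38, the build of mm10) and given per 1000 bases. Genes were matched by symbol, or else through the cross-reference of RefSeq to Ensembl, for 24310 of 25232 genes. Percentiles are among genes with a base mean above 0 and an exon length. The base means sum to 22158933. The worth of 1 read per library was taken from the lowest base means, and 412 of 412 base means in the range of 2 reads were sums of 2 of these values, within 3.3e-09. Counting intervals are exact Poisson intervals at the base mean divided by the highest worth of 1 read, the lower limit on its reads. Reading of low base means was tested on simulated data, with other size factors and with fewer reads per gene than *Wnt8a* had. Every member with a base mean of at least 10 was named with its level and every lower one with its base mean, and of the other pathway genes at most the 3 highest and 3 lowest of each class. The alternatives were the longest transcript or coding sequence as length, no length, other minimums, and protein-coding genes only, which was chosen after seeing the data. Values were computed in Python 3.11.15 (pandas 2.3.3, scipy 1.17.1, numpy 2.4.6) and plotted with matplotlib 3.10.9. Some marker genes of the tissue check are not reported here.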

Additional observations from a re-analysis of the deposited data

How the results depend on the processing

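The median level of the members was 35.8 per kb with the longest transcript and 101 per kb with the longest coding sequence as the length, against 32.3 per kb. The number of members above the median of all genes was 8 when that median was taken over genes whose base mean reached 10, and lay between 11 and 19 under the other 4 choices. Above the upper quartile were 4 members when base means were not divided by length and 2 under the other 4 choices. The number of members past the minimum was 49 at a base mean of 5 and 44 at 20, and the number of other pathway genes above the median lay between 28 and 33 under the 3 choices tried. The leading gene was the same with all lengths in 4 of 7 roles. With the other lengths *Rspo2* led the R-spondins and *Lgr5* the R-spondin receptors, and with the coding sequence *Fzd3* led the Frizzled genes and *Frzb* stood above *Sfrp5*. No paired analysis was possible because the table holds no column of a single library, and for the same reason no library could be left out. Depth limits the 8 members with a base mean under 10, which rest on 8 reads (*Wnt8a*) to at most 107 reads (*Wnt9b*) over all libraries.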

Other observations

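Genes of position along the body were also read. *Hoxc8* had 479 per kb of exon, *Hoxc6* 181 and *Hoxc4* 123. *Hoxc10* and *Hoxd10*, which are known from lumbar levels, had 256 and 83.6 per kb, and *Hoxc9* had 66.3. *Hoxc11* was low at 7.03 per kb, and *Hoxb13* and *Hoxa13* were lower still, with base means of 2.55 and 0.739. Genes of other tissues were present at varied levels. *Acta1*, *Ckm* and *Myh4* of skeletal muscle had 163, 36.9 and 33.8 per kb, *Apoa2* and *Alb* of the liver had 402 and 19.97, and the red cell genes *Hba-a1* and *Hbb-bs* were both listed at 0. The red cell genes have near-identical copies, and reads that mapped to more than 1 place were not used. Whether their values of 0 come from this was not tested.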
